A study of Mus musculus with 250 samples.

Results

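Glucose transport, glycolysis and lactate exchange were described across 250 single cells of the adult mouse brain through 10 genes chosen by symbol, with earlier results of these data known. They are the glucose transporter gene Slc2a1, the phosphofructokinase genes Pfkm and Pfkp with the regulator gene Pfkfb3, the aldolase genes Aldoc and Aldoa, the pyruvate kinase gene Pkm, the lactate dehydrogenase genes Ldhb and Ldha, and the lactate transporter gene Slc16a1. All 10 have a row among the 24490 gene rows of the deposited read counts. The cells come from adult C57BL/6 mice with the genotype SM22-Cre;Rosa26-stop-tdTomato, which every cell shares. SM22-Cre acts where the smooth muscle gene Tagln is switched on and lets a red fluorescent reporter be made there, yet the titles call every cell a brain astrocyte. Cells were sorted by fluorescence into wells and read by Smart-seq2, a full-length method without molecular identifiers. The sources used here give neither the sorting gate nor the number of animals, so the 250 cells form 1 group without known replicates and no test was made on them. The column headers carry the prefixes Brain.VSMC3 (88 cells) and Brain.VSMC2 (162 cells), which are called plate 3 and plate 2 and treated as technical batches.

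Glucose enters a cell through facilitative transporters and is split by glycolysis into pyruvate. Lactate dehydrogenase converts pyruvate and lactate into each other, and monocarboxylate transporters carry lactate across the membrane. Several steps have paralogous enzymes with tissue-specific use: aldolase C is the brain form and a classic astrocyte marker, aldolase A the muscle and general form, and the B subunit of lactate dehydrogenase is the heart form while the A subunit is the muscle form. Astrocytes are known for making lactate from glucose, which neurons can take up.

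The cells had 102161 to 564958 counted reads, with a median of 391071.5 on plate 3 and 256247 on plate 2. Of 15 astrocyte markers, a cell had 10 to 15 at 10 CPM or more (reads of the gene scaled to 1000000 reads in the cell, the threshold for calling a gene detected), with a median of 14, and only Gfap was detected in fewer than 50% of the cells. At least 3 markers of another type were detected in 51 cells, 17 on plate 3 and 34 on plate 2. Oligodendrocyte markers gave 34 of these calls, where Cnp was detected in 191 cells of all 250 and Mbp in 60, while neuron markers gave 12, mural markers 4, and endothelial and microglial markers 2 each. The 10 endothelial markers summed to 0 to 337 CPM per cell with a median of 7.33 CPM.

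Of the 10 genes, 8 were each detected in 50% of the cells or more, where 5.92% of the 16367 genes with reads were that frequent. The median of their mean levels was 418 CPM, against 14.9 CPM over all genes with reads. A cell had 2 to 10 of the 10 genes with a median of 7, and 17 cells had all of them. Aldoc was the one gene of the 10 found in every cell. Ldha and Slc16a1 were the exceptions below 50%, and Pfkfb3 lay at the edge with 127 cells.

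**Figure D1:**
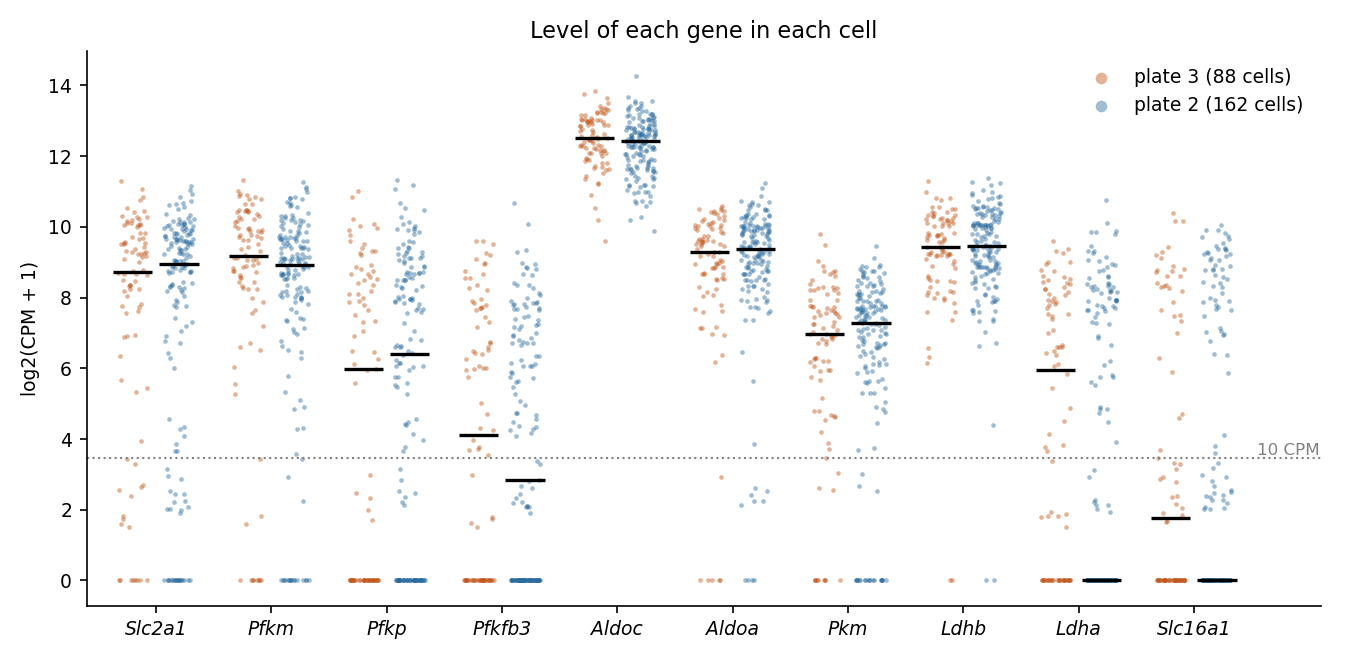
Level of each gene in each cell as log2(CPM + 1), in the order of the pathway, with plate 3 left of plate 2. Points are cells, black bars are medians and the dotted line marks 10 CPM. Aldoc has no cell below 773 CPM, while Ldha, Pfkfb3, Pfkp and Slc16a1 have many cells at 0.

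Slc2a1, which codes for the glucose transporter GLUT1 of astrocytes and brain endothelium, was detected in 200 cells (80.0%, exact 95% binomial interval 74.5 to 84.8%). Slc2a1 levels ran from 0 to 2540 CPM with a median of 486 CPM. The plates overlapped over nearly this whole range, with medians of 423 CPM on plate 3 and 494 CPM on plate 2. Because Slc2a1 is also a gene of blood vessels, its cells were set beside the endothelial markers: 182 of the 200 had none of them at 10 CPM, as had 228 of all 250 cells, so the Slc2a1 cells did not stand apart in this count. The 228 cells without an endothelial marker averaged 574 CPM of Slc2a1, against 559 CPM over all cells. These means share most of their cells, and whether vessels gave Slc2a1 reads was not tested. Of the other glucose transporter genes, the neuronal form Slc2a3 was detected in 7 cells, the insulin-responsive form Slc2a4 in 30 and Slc2a8 in 60. Slc2a1 lies on chromosome 4 at 119108711 to 119137983 (GRCm38, + strand).

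Phosphofructokinase commits sugar to glycolysis, and its muscle subunit gene Pfkm had the highest mean per length of the 3 subunit genes. Pfkm ran from 0 to 2580 CPM with a median of 511 CPM and was detected in 220 cells. The platelet subunit gene Pfkp ran from 0 to 2555 CPM with a median of 72.4 CPM and was detected in 149 cells. Pfkm was thus found in more cells than Pfkp, and each was at 0 reads in some cells of both plates. The liver subunit gene Pfkl, not one of the 10, reached 10 CPM in 68 cells and averaged 79.5 CPM. Per kilobase of merged exon, the mean level was 191 CPM for Pfkm, 20.6 for Pfkp and 11.9 for Pfkl. The Pfkp value depends on the transcript assumed, since per kilobase of the longest coding transcript it was 66.7 CPM, against 222 CPM for Pfkm.

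Within single cells, Pfkm usually held more of the reads per kilobase of merged exon than Pfkp, with a share above 50% in 207 cells. Over the 230 cells with at least 20 reads of Pfkm and Pfkp together, the Pfkm share of reads per kilobase averaged 83.4% with an SD between cells of 26.7 percentage points. It was 84.8% on plate 3 and 82.7% on plate 2. With the longest coding transcripts as lengths the mean share was 75.2%, and as a share of reads with no length scaling it was 71.7%. There were 71 cells with Pfkm reads alone and 9 with Pfkp reads alone. Pfkp was detected in 50.6% of the plate 3 cells with Pfkm and 63.6% of the 11 cells without it, against 65.7% and 47.4% on plate 2, where 19 cells lacked Pfkm. The plates differed in direction, so joint detection showed no common pattern. Pfkm lies on chromosome 15 at 98092589 to 98132451 and Pfkp on chromosome 13 at 6579768 to 6648777.

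Pfkfb3 makes fructose-2,6-bisphosphate, the strongest activator of phosphofructokinase. It was detected in 127 cells (50.8%, 44.4 to 57.2%), 55.7% of the cells on plate 3 and 48.1% on plate 2. Its level ran from 0 to 1623 CPM with a median of 12.1 CPM, and the 25 highest cells held 56.1% of its reads. Among the related genes, Pfkfb2 was detected in 64 cells, Pfkfb4 in 42 and Pfkfb1 had no reads. Pfkfb3 lies on chromosome 2 at 11471433 to 11554077.

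Aldolase splits the sugar bisphosphate into its triose parts, and the pair of paralogs is shown by sequence because the share of each rests on reads being told apart. The coding sequences of Aldoc and Aldoa are 1092 and 1095 bases long and 75.5% identical, and the longest run without a difference is 26 bases. For Ldhb and Ldha, with 1005 and 999 bases, the values are 71.2% and 18 bases. The lines below give coding bases 1 to 60 of Aldoc (chromosome 11) and Aldoa (chromosome 7), and, in the first window without a gap, bases 61 to 120 of Ldhb (chromosome 6) and 58 to 117 of Ldha (chromosome 7), from GENCODE M21 transcripts on GRCm38. Capitals mark the bases that differ within a pair, 11 of 60 for aldolase and 16 of 60 for lactate dehydrogenase.
Aldoc: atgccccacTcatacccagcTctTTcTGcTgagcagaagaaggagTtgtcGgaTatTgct
Aldoa: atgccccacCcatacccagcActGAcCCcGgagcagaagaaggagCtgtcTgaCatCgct
Ldhb: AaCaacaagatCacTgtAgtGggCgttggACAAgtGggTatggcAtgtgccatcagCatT
Ldha: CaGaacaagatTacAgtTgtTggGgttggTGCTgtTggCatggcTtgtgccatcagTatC

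Aldoc held more than 50% of the aldolase reads per kilobase of merged exon in all cells but 1. Its level ran from 773 to 19726 CPM with a median of 5587 CPM, and it ranked 13 among all genes by mean. Aldoa ran from 0 to 2413 CPM with a median of 651 CPM and was detected in 234 cells. No cell lacked Aldoc, while 9 cells had no read of Aldoa. Mean levels per kilobase of merged exon were 1811 CPM for Aldoc and 241 CPM for Aldoa, a ratio of 7.53, or 4.69 with the longest coding transcripts as lengths. Aldoc lies on chromosome 11 at 78322968 to 78327781 and Aldoa on chromosome 7 at 126795234 to 126800751.

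That share averaged 87.1% over the 250 cells, with an SD between cells of 9.65 percentage points. It ran from 44.8% to 100% with a median of 89.8%, and it was 88.6% on plate 3 and 86.3% on plate 2. The 1 cell below 50% was on plate 3 and had 773 CPM of Aldoc, the lowest of all cells, and 848 CPM of Aldoa. In 7 cells all reads of the pair were of Aldoc. As a share of reads, the SD between cells was 8.98 percentage points, where binomial counting of the reads gives 0.852, although reads copied by PCR are not independent. With the longest coding transcripts as lengths the mean share was 81.5%, and more cells fell below 50%. The retrogene Aldoart1 is 93.7% identical to Aldoa in coding sequence and had 253 reads, against 51572 of Aldoa.

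**Figure D2:**
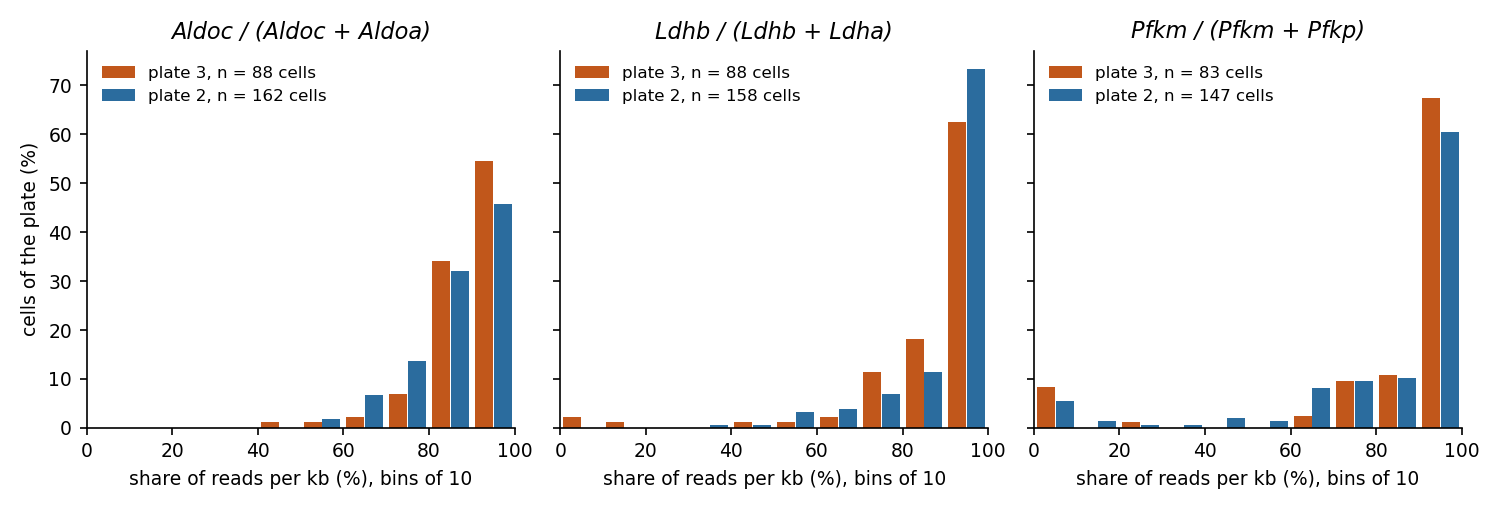
Share of the first-named gene in the reads per kilobase of each pair, in bins of 10%, as the percent of the cells of each plate with at least 20 reads of the pair. Most cells lie at 80% or more for Aldoc, while the shares of Ldhb and Pfkm pile up above 90% with a small group of cells near 0 for Pfkm.

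Pkm, the pyruvate kinase of brain and muscle, was detected in 216 cells and ran from 0 to 889 CPM with a median of 145 CPM. The plates were alike, with 86.4% of cells on each. Per kilobase of merged exon its mean was 33.7 CPM, below Aldoa at 241 CPM and Ldhb at 527 CPM. Of the 50-base words of its longest coding transcript, 34.4% also occur in another annotated gene, the most of the 10 genes. The liver form Pklr was detected in 1 cell. Pkm lies on chromosome 9 at 59656368 to 59679375.

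Ldhb was found in nearly every cell and Ldha in about as many cells as not. Ldhb ran from 0 to 2656 CPM with a median of 697 CPM and was detected in 246 cells (98.4%, 96.0 to 99.6%). Ldha ran from 0 to 1723 CPM with a median of 5.24 CPM and was detected in 122 cells (48.8%, 42.5 to 55.2%). The plates differed in the Ldha median, 60.9 CPM on plate 3 and 0 on plate 2. The 25 highest cells held 47.7% of the Ldha reads, against 25.6% for Ldhb. The mean per kilobase of merged exon was 527 CPM for Ldhb and 43.9 CPM for Ldha, a ratio of 12.0, or 7.92 with the longest coding transcripts as lengths. The testis form Ldhc had no reads, and Ldhd, which acts on D-lactate, was detected in 31 cells. Ldhb lies on chromosome 6 at 142490249 to 142507957 and Ldha on chromosome 7 at 46841475 to 46855627.

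The Ldhb share of lactate dehydrogenase reads per kilobase averaged 90.8% over the 246 cells with at least 20 reads of the pair, with an SD between cells of 15.7 percentage points. It was above 50% in 240 cells by merged exon lengths, and in fewer cells with the longest coding transcripts as lengths. Ldhb reads alone were found in 93 cells. The mean was 88.5% on plate 3 and 92.1% on plate 2. The 2 cells with Ldha reads alone were on plate 3 and had 65.8 and 368 CPM of Ldha. Ldha was detected in 59.1% of the cells on plate 3 and 43.2% on plate 2, and these shares were 58.0% and 43.2% for a read after each cell was thinned to 100000 reads. The mean level of Ldha was nevertheless 147 CPM on plate 3 and 144 CPM on plate 2. Cells with more genes detected had lower Ldhb shares, with a Spearman rho of -0.25 among the 88 cells of plate 3 and -0.26 among 158 of plate 2. The part of this in the spread of the share was not tested. The aldolase and lactate dehydrogenase shares had a rho of 0.041 and 0.0026 with each other on the plates. The Ldhb and Pfkm shares had -0.29 over 83 cells of plate 3 and -0.12 over 144 of plate 2. For the Aldoc and Pfkm shares these values were -0.0061 and -0.089.

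Slc16a1 codes for the monocarboxylate transporter MCT1, which moves lactate in either direction. It was the least frequent of the 10 genes, in 88 cells (35.2%, 29.3 to 41.5%), and a read was present in 121 cells. Its level ran from 0 to 1341 CPM with a median of 0, and the 25 highest cells held 56.7% of its reads. Slc16a3, the transporter gene of strongly glycolytic cells, was detected in 2 cells, and the neuronal form Slc16a7 in 0 cells, although 3 cells had a read. Bsg, the chaperone subunit that brings these transporters to the membrane, was detected in 231 cells with a median of 460 CPM. Slc16a1 was detected in 37.1% of the Slc2a1 cells and 33.3% of the 18 others on plate 3, against 33.1% of the Slc2a1 cells and 40.6% of the 32 others on plate 2. Slc16a1 lies on chromosome 3 at 104638668 to 104658462.

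The plates differed little in the mean levels of these genes. The ratio of plate 3 over plate 2 was more than 2-fold for 0 of the 10, where 14.6% of the 9181 genes with a mean of 10 CPM or more passed this fold in either direction. For only 10 genes, a count of 0 is near that share. The median absolute log2 ratio was 0.11 for the 10 genes and 0.40 for the 9181. The sets differ in level, as the 9181 reach down to a mean of 10 CPM. The median of the 10 means was 418 CPM. Pfkfb3 had the largest log2 ratio of the 10 at 0.37, with means of 126 CPM on plate 3 and 97.2 CPM on plate 2. Next was Pfkm at 0.35, with 741 CPM on plate 3 and 583 CPM on plate 2.

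Levels of the 10 genes were at most weakly correlated over the cells of a plate. The mean Spearman rho of the 45 pairs came to 0.0511 over the 88 cells of plate 3 and 0.0759 over the 162 of plate 2. It averaged 0.0635 over the plates, or 0.0411 given total reads and genes detected. Of the pairs, 24 were above 0 on both plates, 3 were below 0 on both and 18 had opposite signs. Only 2 pairs reached 0.2 on both plates: Aldoc with Aldoa at 0.26 on plate 3 and 0.22 on plate 2, and Aldoc with Pfkm at 0.20 and 0.28. Given total reads and genes detected, these were 0.24 and 0.22, and 0.20 and 0.26. The paralogs Ldhb and Ldha had -0.074 and 0.014, and Pfkm and Pfkp 0.0094 and -0.0065. Pfkfb3 had 0.23 and 0.20 with Ldha and 0.15 and 0.21 with Slc16a1, while it was below 0 with Ldhb at -0.072 and -0.14. Ldha was detected in 67.3% of the Pfkfb3 cells and 48.7% of the others on plate 3, and in 53.8% and 33.3% on plate 2. Given total reads and genes detected, Pfkfb3 with Ldha had a rho of 0.19 on each plate. Ldha and Pfkp had -0.21 and -0.095. Cells of a plate share its handling and differ in depth and in genes detected. Genes detected had a rho with Aldoc of 0.35 on plate 3 and 0.20 on plate 2, and with Ldha of 0.22 and 0.31.

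**Figure D3:**
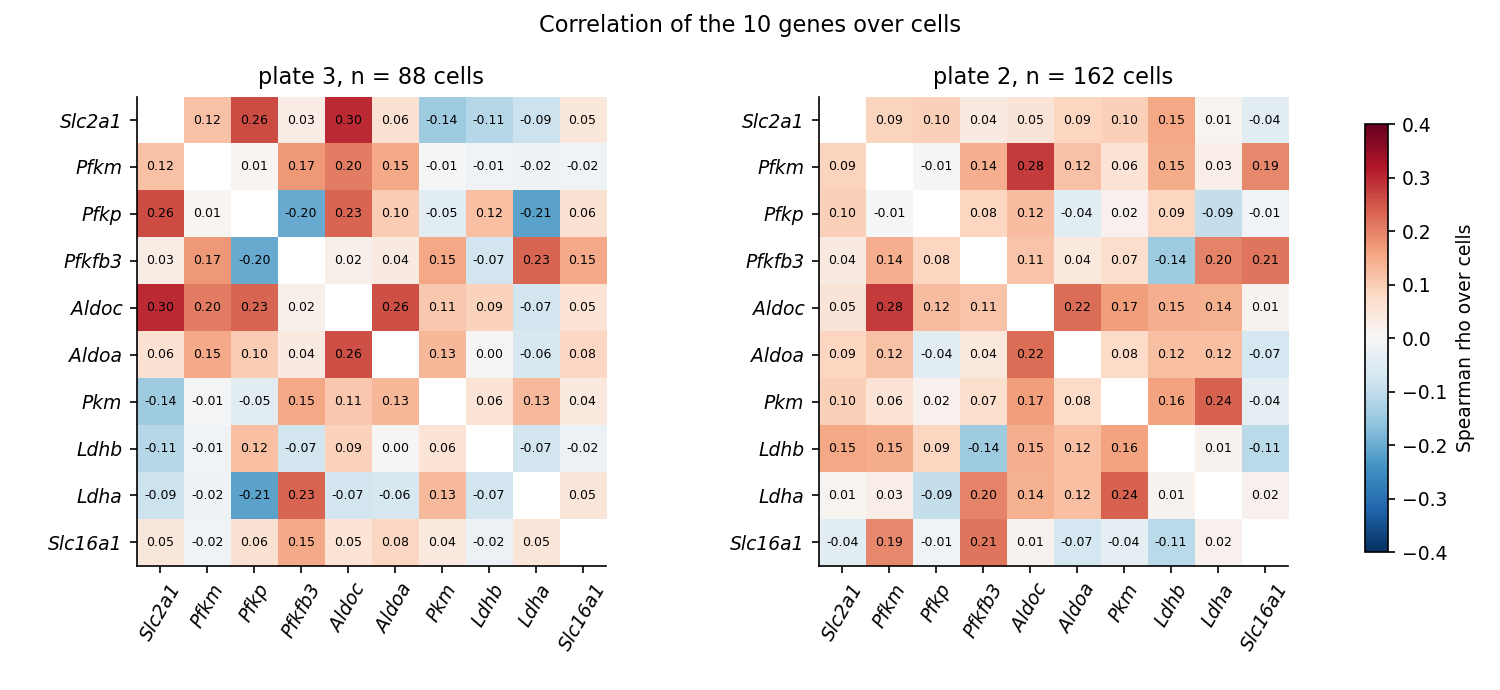
Spearman rho of CPM over cells for each pair of the 10 genes, on plate 3 (left) and plate 2 (right), colour from -0.4 (blue) to 0.4 (red). Most pairs lie near 0, and Aldoc with Aldoa and with Pfkm are the 2 pairs at 0.2 or more on both plates.

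The genes most like each of the 8 widely detected genes were sought among the 968 others detected in at least 50% of the cells, by the lower of the plates' rho. Aldoc was closest to Ckb, the brain creatine kinase, with 0.43 on plate 3 and 0.48 on plate 2, and these values were 0.34 and 0.45 given total reads and genes detected. Pla2g7, which inactivates platelet-activating factor, followed with 0.41 and 0.38, and the glycolytic dehydrogenase gene Gapdh with 0.29 and 0.36. Aldoa was closest to Aldoc, then to Ckb (0.25 and 0.20) and Gapdh (0.19 and 0.24). Ckb and Gapdh were thus among the 3 closest genes of both aldolase genes, and Ckb was also among those of Pkm (0.20 and 0.21). Given total reads and genes detected, Aldoc with Gapdh had 0.20 on plate 3 and 0.35 on plate 2.

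For the other genes the closest values were lower. Ldhb was closest to the peroxiredoxin gene Prdx6 (0.22 and 0.20), then to Cox8a (0.19 on each plate) and Atp5g3 (0.18 and 0.19), which code for subunits of the respiratory chain and ATP synthase. Pfkm was closest to Aldoc, Pfkp to the amino acid transporter gene Slc7a10 (0.22 and 0.26) and Slc2a1 to the secreted protease gene Htra1 (0.30 and 0.22). Pkm was closest to Apc2 (0.20 and 0.22) and Pfkfb3 to Sfi1 (0.23 and 0.18). These genes were picked as the highest of many, so the values describe these cells only.

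**Figure D4:**
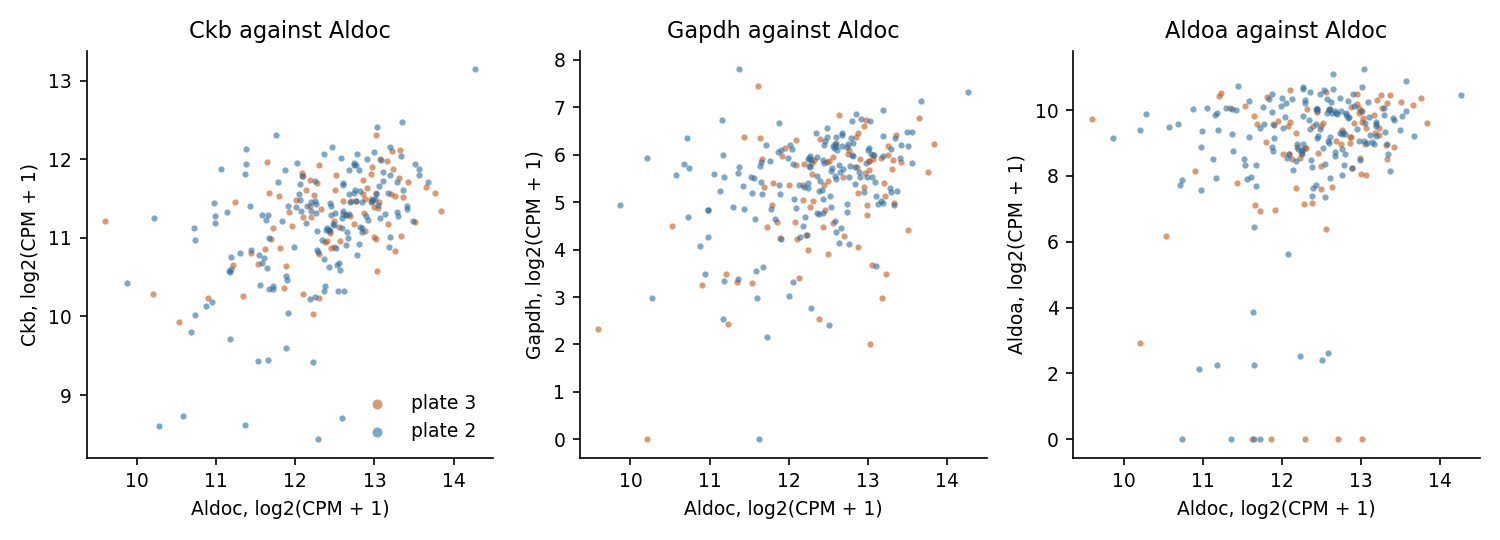
Level of Ckb, Gapdh and Aldoa against Aldoc in each cell, as log2(CPM + 1), for plate 3 (orange) and plate 2 (blue). Ckb rises with Aldoc over the cells of both plates (rho 0.43 and 0.48), and Aldoa has some cells at or near 0 across the middle of the Aldoc range.

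Of 16 genes of the other steps of glycolysis, 3 reached 10 CPM in 50% of the cells or more, where 5.92% of all genes with reads did: Gapdh in 229, the triose phosphate isomerase gene Tpi1 in 202 and the glucose phosphate isomerase gene Gpi1 in 198. The hexokinase gene Hk1 was detected in 98 cells and Hk2 in 4. Gapdh had a mean of 48.6 CPM, with a median of 45.7 CPM and a highest cell of 223 CPM. The phosphoglycerate kinase gene Pgk1 had a mean of 12.5 CPM, the mutase gene Pgam1 4.58 CPM and the enolase gene Eno1 1.17 CPM.

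Sequence shared with other genes was measured because reads in it cannot be placed by sequence alone. Of the 50-base words of the longest coding transcript, 82.5% of Gapdh, 72.2% of Eno1, 68.0% of Pgk1 and 41.5% of Pgam1 occur in transcripts of other genes. Their mean levels per kilobase of merged exon were 11.8 CPM for Gapdh, 0.22 for Eno1, 5.55 for Pgk1 and 2.31 for Pgam1. The other 11 enzymes plotted had 0 to 34.4% of such words and 11.1 CPM per kilobase or more. Gapdh lay between Hk1 at 11.1 and Pfkl at 11.9 CPM per kilobase of merged exon. Per kilobase of the longest coding transcript it had 34.2 CPM, against 22.1 for Hk1 and 21.3 for Pfkl. Hk2 (0% of words, 0.76 CPM per kilobase of merged exon), Pgam2 (0%, 0.27) and Eno2 (0.255%, 2.28) are not plotted. They were detected in 4, 1 and 22 cells. Among the 10 genes the share was 0% for Aldoc, Pfkm and Slc16a1, 13.5% for Aldoa, 16.6% for Ldha, 17.1% for Pfkp, through the overlapping gene Pitrm1, and 27.0% for Ldhb. The sources used here do not say how reads that match several genes were counted, and the part of shared sequence in these levels was not tested.

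**Figure D5:**
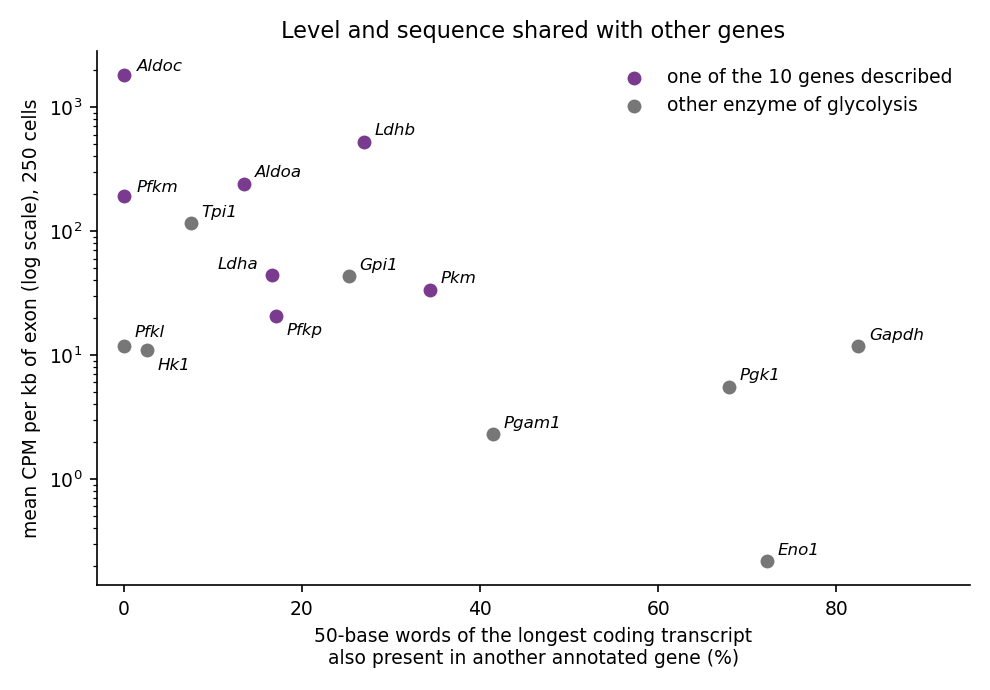
Mean level per kilobase of merged exon over the 250 cells (log scale) against the percent of 50-base words shared with another annotated gene, for 15 enzymes of glycolysis and lactate dehydrogenase. Eno1, Pgk1 and Pgam1 have the lowest levels. Gapdh lies furthest right at about the level of Hk1 and Pfkl, and Aldoc is at 0% with the highest level.

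Of the genes around pyruvate and lactate, 5 of 14 reached 10 CPM in 50% of the cells or more, again beside 5.92% of all genes with reads. Besides Bsg they were the pyruvate carboxylase gene Pcx, which feeds pyruvate into the citrate cycle and is typical of astrocytes, in 160 cells at a mean of 266 CPM, the pyruvate dehydrogenase kinase gene Pdk2 in 155, and the mitochondrial pyruvate carrier genes Mpc2 in 150 and Mpc1 in 129. The kinase genes Pdk4, Pdk1 and Pdk3 were detected in 43, 33 and 4 cells. None of the 8 other glucose transport and regulator genes with a row passed 50%, beside the same general share of 5.92%. Of 12 genes of the hypoxia response 4 did, namely P4ha1 in 152 cells, the transcription factor genes Hif1a in 150 and Epas1 in 146, and Vegfa in 144. The other 8 genes of that list were detected in 0 to 73 cells.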

How the data were processed

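The authors deposited read counts per gene and cell as whole numbers that were not normalized, and STAR 2.4.2a and mm10 are named in the submitters' processing notes. The sources used here name no counting tool, strand setting, annotation or cell filter. Each of the 250 columns took its sample from the header, with 0 left unmatched, and no cell was removed. The deposited table of scaled counts was not used.

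Levels are CPM, and a gene was called detected at 10 CPM. Shares of a pair used cells with at least 20 reads of it, per kilobase of merged exons in GENCODE M21 (GRCm38). For Aldoa, a symbol with 2 gene entries there, the one overlapping RefSeq's gene was used. Correlations are Spearman's, within plates. Sequence words of 50 bases were searched on both strands of all GENCODE transcripts. Intervals are exact binomial at 95% for a percent of cells. They treat the cells as independent draws, which is not known because the number of animals is not given. For read counts, PCR copies of 1 molecule count as several reads. Analyses used numpy 2.4.6, pandas 2.3.3, scipy 1.17.1 and Biopython 1.88, and the search for similar genes was tested on simulated data.

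The 10 genes and the lists were chosen with earlier results of these data known. The text names the 10 genes, members of the 4 pathway and 6 marker lists, with values mainly for those in at least 50% of cells, and the 3 genes most like each widely detected gene. The Pfkm and Pfkp pair, the 50-base words, the 15 enzymes plotted, the genes of the lists named below 50% and Aldoart1 were chosen after their values were seen.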

Additional observations from a re-analysis of the deposited data

How the results depend on the processing

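The Aldoc share (87.1%) was 88.2% with no length scaling, 81.5% with the longest coding transcripts as lengths, 88.3% from reads summed over cells, 88.6% on plate 3 alone, 86.3% on plate 2 alone and 86.2% without the cells with 3 markers of another type. The Ldhb share (90.8%) was 85.6% with no length scaling, 88.1% with the longest coding transcripts, 92.5% from summed reads, 90.0% with at least 100 reads of the pair, 88.5% on plate 3 alone and 92.1% on plate 2 alone. With lengths counted in 50-base words found in no other gene, an alternative chosen after seeing the data, the shares were 79.2% and 89.1%. The median percent of cells with a gene, over the 10 genes, was 83.2% at 10 CPM, 89% at 1 read and 75.8% at 50 CPM. The number of genes in at least 50% of cells was 7 to 9 under its alternatives, against 8. No gene had a plate ratio over 1.5-fold either, a fold passed by 33.9% of the 9181 genes. The mean correlation of the pairs (0.0635) was 0.0411 given total reads and genes detected, 0.0511 on plate 3 alone and 0.0759 on plate 2 alone. The causes of these shifts were not tested. No paired analysis was possible because all cells form 1 group. Genes at 0 in a cell may lie under the depth of that cell, as the shallowest had 102161 reads.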
